A study of Mus musculus with 8 samples.

Results

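The nuclear subunits of complexes III, IV and V of the respiratory chain, with cytochrome c, were described in brown adipose tissue (BAT) of mice that lack the orexin receptor Ox1R in serotonergic cells. The genes were chosen by name: every protein-coding gene whose symbol starts with Uqcr, Cox4 to Cox8 or Atp5, plus Cyc1 and Cycs. This gave 45 genes of the 44674 in the table, 9 of complex III, 1 for cytochrome c, 18 of complex IV and 17 of complex V. A further gene identifier of the annotation, a second entry for Atp5o, has no value here.

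BAT had been taken from 4 control mice and 4 Ox1RΔSERT mice at the end of a hyperinsulinemic-euglycemic clamp, in which insulin is infused and glucose is given to hold blood glucose steady. Ox1RΔSERT mice were Ox1R fl/fl, Sert-Cre tg/wt and controls were Ox1R fl/fl, Sert-Cre wt/wt from the same breeding, so that both groups carry the floxed receptor alleles and Cre alone separates them. Floxed alleles were made in C57/BL6-derived stem cells, and all animals were males on a high-fat diet (HFD) from week 4 to week 18 of age and fasted before the clamp. Sert-Cre is driven by the gene of the serotonin transporter. In the brain the paper reports recombination in serotonergic neurons of the raphe nuclei, and ectopically in cingulate cortex and thalamus. Recombination in brown adipocytes was not tested. Mice are named here by their animal number, and values are listed in the order 10684, 11253, 11560 and 11563 for controls and 11243, 11601, 11613 and 11708 for Ox1RΔSERT mice.

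Complex III passes electrons from ubiquinol to cytochrome c, a small soluble carrier, and complex IV, cytochrome c oxidase, passes them on to oxygen. Both pump protons, and complex V, the ATP synthase, uses the proton gradient to make ATP. In brown adipocytes uncoupling protein 1 returns protons without making ATP, and brown fat is known for much respiratory chain and little ATP synthase, a shortage ascribed to low expression of Atp5g1, one of the genes for the c subunit of its rotor. Several complex IV subunits come as pairs of isoforms, one found in most tissues and one typical of heart, muscle or another tissue.

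The libraries held between 35852708 and 50063339 estimated counts, of which mitochondrially encoded genes took 33.6% to 46.8%, and the 45 genes together 2.22% to 2.98%. Hcrtr1, the gene of Ox1R, had 0 to 5 counts in every mouse of both groups, so the deletion cannot be checked in this tissue. All 10 brown adipocyte markers looked at were detected. Skeletal muscle markers, summed over 15 genes, stood at 2336 in control mouse 11253, 3202 in Ox1RΔSERT mouse 11708 and 324 in Ox1RΔSERT mouse 11601, against 53.7 to 123 in the other mice. Leukocyte and fibroblast markers were highest in Ox1RΔSERT mice 11601 and 11708. These libraries stand apart from the rest, and the subunits' log2 fold changes without them are given with the genotype comparison.

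The 250 bases before the annotated start are shown for 5 genes. These are the gene of each role with the lowest p in the genotype comparison among those in the promoter table, and Atp5g1, whose mean was higher in Ox1RΔSERT mice. The part of promoter sequence in the subunits' levels was not tested. Sequences are from RefSeq on GRCm38.p6 and were found for 32 of the 45 genes. All 5 genes lie on the minus strand, and the windows are chr6:50566570-50566819 for Cycs, chr4:116075071-116075320 for Uqcrh, chr13:86046796-86047045 for Cox7c, chr2:10080511-10080760 for Atp5c1 and chr11:96075632-96075881 for Atp5g1. Capitals mark matches to the motifs searched.
Cycs: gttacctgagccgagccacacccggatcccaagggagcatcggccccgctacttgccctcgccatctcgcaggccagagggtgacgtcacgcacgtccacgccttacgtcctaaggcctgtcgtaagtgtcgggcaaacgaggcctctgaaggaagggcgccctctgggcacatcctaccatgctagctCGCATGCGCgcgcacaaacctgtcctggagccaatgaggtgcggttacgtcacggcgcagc
Uqcrh: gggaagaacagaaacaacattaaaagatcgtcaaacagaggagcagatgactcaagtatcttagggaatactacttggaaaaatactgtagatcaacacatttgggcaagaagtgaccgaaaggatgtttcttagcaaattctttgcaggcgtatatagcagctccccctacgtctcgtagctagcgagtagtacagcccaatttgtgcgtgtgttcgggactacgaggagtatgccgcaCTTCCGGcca
Cox7c: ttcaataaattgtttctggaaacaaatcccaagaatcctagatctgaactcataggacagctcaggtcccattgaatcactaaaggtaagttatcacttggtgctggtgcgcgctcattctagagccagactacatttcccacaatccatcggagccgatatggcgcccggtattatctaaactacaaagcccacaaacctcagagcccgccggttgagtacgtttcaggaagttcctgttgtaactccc
Atp5c1: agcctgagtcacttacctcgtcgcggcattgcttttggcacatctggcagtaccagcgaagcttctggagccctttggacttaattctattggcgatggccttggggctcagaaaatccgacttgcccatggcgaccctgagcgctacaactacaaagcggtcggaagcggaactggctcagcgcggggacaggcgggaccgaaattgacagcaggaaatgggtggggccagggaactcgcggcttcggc
Atp5g1: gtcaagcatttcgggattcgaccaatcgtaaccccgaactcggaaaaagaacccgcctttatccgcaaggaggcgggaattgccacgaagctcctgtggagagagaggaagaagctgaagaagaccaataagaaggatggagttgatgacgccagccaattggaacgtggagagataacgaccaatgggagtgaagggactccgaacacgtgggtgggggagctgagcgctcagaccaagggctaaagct

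The 4 motifs searched are those of factors known for respiratory chain genes, read on both strands: GCGCATGCG for NRF1, CCGGAAG for the ETS family, to which GABPA belongs, AAGGTCA for the estrogen-related receptors and AAGATGG for YY1. The Cycs window held an NRF1 match whose first base lies at -61 from the start, and the Uqcrh window an ETS match at -10, so close to the start that only 3 bases follow it. The windows of Cox7c, Atp5c1 and Atp5g1 held none of these letters. Over all 32 genes, 5 held the NRF1 motif (Atp5g2, Atp5k, Atp5l, Cox6a1 and Cycs), 15.6%, against 1.64% of the 27025 genes in the table. The ETS motif was found for 8 genes, 25%, against 7.83% of all genes, the estrogen-related receptor motif for 2, Atp5g3 and Atp5l, 6.25% against 4.70%, and the YY1 motif for 1, Atp5j, 3.12% against 5.18%. A match is a description of the letters and not a bound site.

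Levels between genes were compared in TPM, a measure of transcripts that is scaled for transcript length and library. Of the 45 genes, 38 had a mean of at least 100 TPM over the 8 mice, and 7 had under 20. Complex III was the most even of the complexes: its 9 mRNAs lay between 668 and 1371 TPM, a 2.05-fold range, with Uqcrq, a small subunit that binds near cytochrome b, at the top. Complex IV spanned 25.04-fold and complex V 18.7-fold among their members with at least 100 TPM. The lowest of these in complex IV was Cox7a2l at 139 TPM, and the next was Cox7a2 at 538 TPM. Cox8b, the muscle-type form of a small complex IV subunit, and Atp5b, the catalytic beta subunit of the ATP synthase, led the list at 3488 ± 325 and 3476 TPM (SD over 8 mice for Cox8b), and lay closer to each other than their spread over mice. Cycs, at 123 TPM, was the lowest of the 38.

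**Figure D1:**
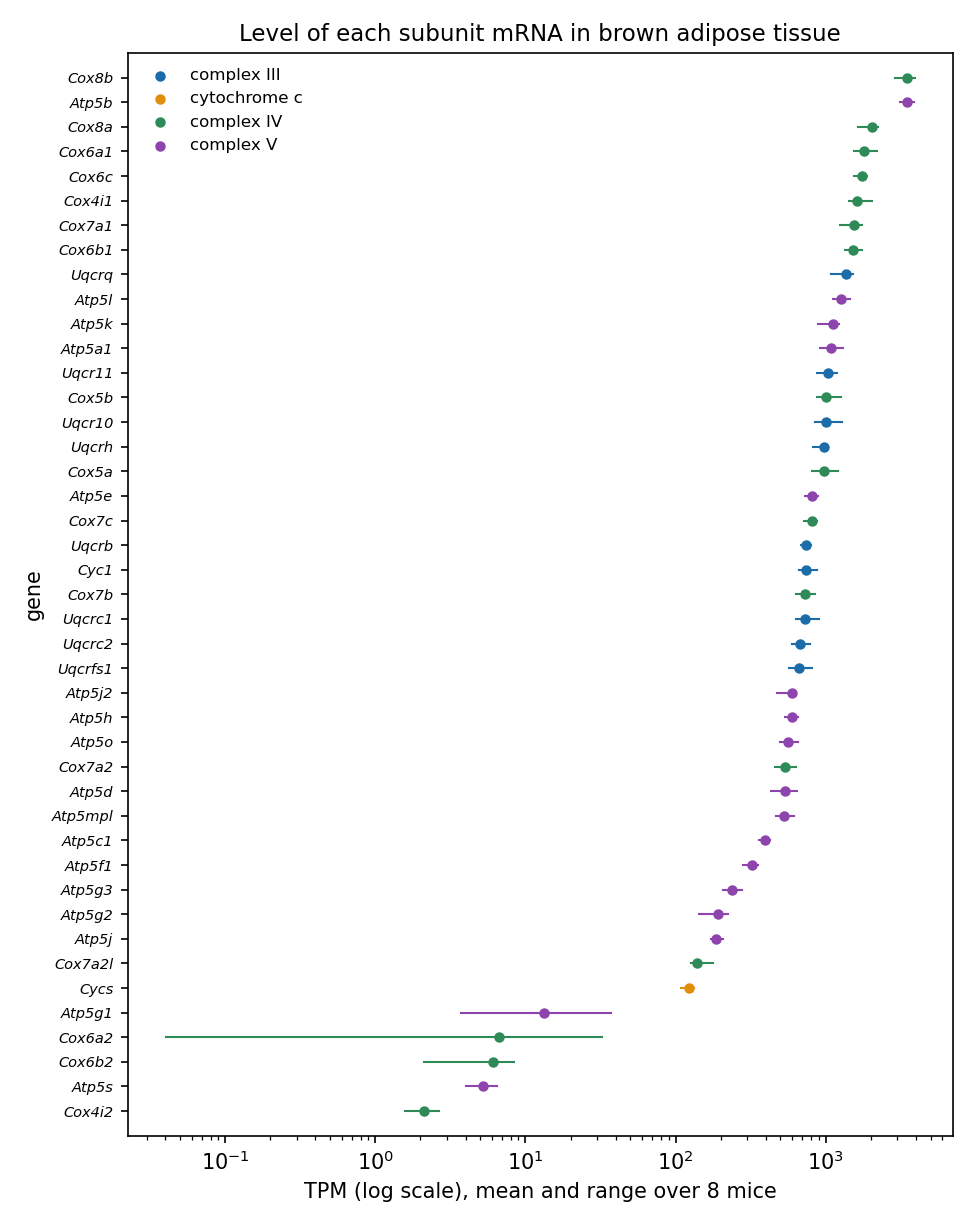
Mean TPM of each subunit mRNA (points) and the range over the 8 mice (lines), on a log axis, for the 43 genes with a mean of at least 1 TPM, coloured by complex. The 38 genes from Cox8b at 3488 TPM down to Cycs at 123 TPM have narrow ranges, while Atp5g1 and Cox6a2 vary most between mice.

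The genes under 20 TPM were isoforms of other tissues, with Atp5g1 and Atp5s. Atp5g1 stood at 13.4 TPM, beside 191 for Atp5g2 and 236 for Atp5g3, which encode the same mature c subunit. Cox6a2, the heart and muscle form of subunit 6a, had 6.70 TPM, Cox6b2, a testis form, 6.11, Atp5s, a coupling factor of the ATP synthase, 5.24, and Cox4i2, a lung form of subunit 4, 2.10. The testis forms Cox7b2 and Cox8c were listed at or near 0, Cox7b2 with a value above 0 in 1 mouse, and were not tested.

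To compare the genotypes, read counts were scaled to library size with TMM factors (CPM, called normalized values below), and tested with edgeR's quasi-likelihood test over all 14489 genes that passed a filter on low counts, 43 of the 45 subunits among them. None of the 43 passed an adjusted p of 0.05 (Benjamini-Hochberg), as was the case for all genes (0% called), and the lowest adjusted p of a subunit was 0.316. DESeq2 called none of the subunits either, while it called 265 of 15119 genes (1.75%). At an unadjusted p under 0.05, 10 of the 43 had a lower mean in Ox1RΔSERT mice, against 4.96% of all genes, and none a higher one, against 10.2% of all genes. They were Uqcrc2, Uqcrb, Uqcrh, Cycs, Cox7c, Cox7a1, Atp5mpl, Atp5c1, Atp5j2 and Atp5e. The p-values measure the spread between these mice only.

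The direction was nearly uniform. Of the 43 genes, 40 had a log2 fold change below 0, against 49.6% of all genes, and the median was -0.29 (quartiles -0.33 and -0.24) against 0.00 for all genes. All 9 genes of complex III, Cycs, 15 of 16 of complex IV and 15 of 17 of complex V were among the 40, with medians of -0.32, -0.28 and -0.28 for complexes III, IV and V. Cox6a2, Atp5g1 and Atp5s were the genes above 0. The normalized values of the groups did not overlap for 6 genes, all lower in Ox1RΔSERT mice: Uqcrc2, Uqcrh, Cox6b2, Cox8a, Atp5c1 and Atp5mpl, against 2.81% of all genes that did so in this direction. In TPM the groups overlapped for each of these 6 genes.

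**Figure D2:**
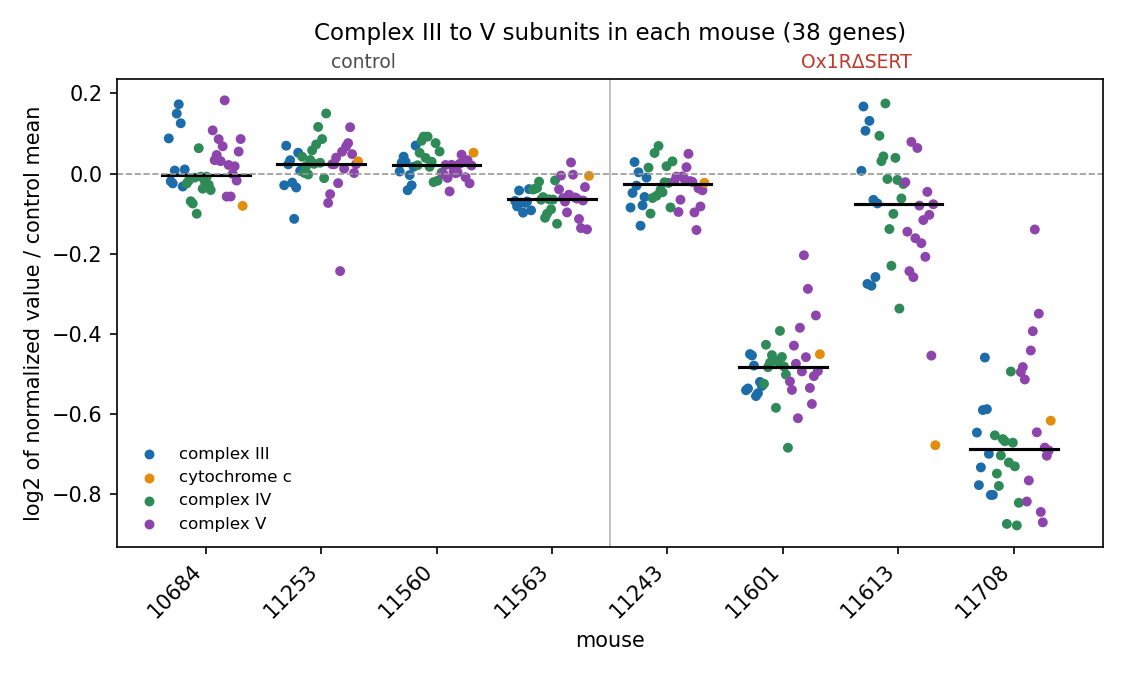
Log2 ratio of each subunit's normalized value to its control mean (points, coloured by complex) in each mouse, for the 38 subunits with a mean of at least 20, with the median per mouse as a black line. Ox1RΔSERT mice 11601 and 11708 have medians of -0.48 and -0.69, while the other 6 mice lie between -0.08 and 0.02.

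The shift was not shared by the 4 Ox1RΔSERT mice. Over the 38 subunits with a mean normalized value of at least 20, the median level was 71.6% of the control mean in mouse 11601 and 62.1% in mouse 11708, but 98.2% in mouse 11243 and 94.9% in mouse 11613. The control mice lay between 95.6% and 101.7%. For 36 of the 38 genes the 2 lowest of all 8 mice were 11601 and 11708, which is the case for 15.3% of all genes tested. Without these 2 mice the median log2 fold change of the subunits was -0.06, 32 of 43 genes lay below 0 and none had an unadjusted p under 0.05. Of the genes named above, Cycs moved from -0.42 to -0.31, Uqcrc2 from -0.38 to -0.20, Uqcrh from -0.38 to -0.15, Cox7a1 from -0.40 to -0.13, Cox8a from -0.34 to -0.07 and Atp5mpl from -0.38 to -0.25. Without mice 11253 and 11708, highest in skeletal muscle markers, 42 subunits passed the filter, the median was -0.18, 39 lay below 0 and none had an unadjusted p under 0.05. Cycs then stood at -0.35, Uqcrc2 at -0.35, Uqcrh at -0.25, Cox7a1 at -0.26, Cox8a at -0.21 and Atp5mpl at -0.29. Leaving out single Ox1RΔSERT mice in edgeR gave 1 gene under 0.05 without 11708, 3 without 11601, 23 without 11243 and 20 without 11613. Leaving out single control mice gave 2 to 4. Without mouse 11243 DESeq2 called 10 subunits, those named above at an unadjusted p under 0.05, all lower, with a lowest adjusted p of 2.77e-06, and none without any other mouse. The shares of all genes in the fits with mice left out are not given here. The counts of subunits in those fits therefore cannot be set against them.

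In mice 11601 and 11708, markers of leukocytes and fibroblasts were high. Leukocyte markers summed to 821 in mouse 11601 and 624 in mouse 11708, against 104 to 238 in the other 6 mice, with all 8 tested markers of 10 above 0 in log2 fold change. Fibroblast markers summed to 5378 and 2501, against 361 to 988, with 5 of 5 above 0. Of 14 tested skeletal muscle markers 11 were above 0, but their sum was high in mouse 11708 and control mouse 11253. In mouse 11601 it was 324. Endothelium markers summed to 246 and 326 in mice 11601 and 11708, against 264 to 359 in the other 6. Erythroid markers stood at 353 and 585 against 464 to 1231, and nerve and Schwann cell markers at 2.07 and 3.09 against 2.98 to 10.3. White adipocyte markers, at 302 and 291 against 117 to 404, lay inside the range of the other mice. The sum of brown adipocyte markers was lowest in mice 11601 and 11708, at 9457 and 8765 against 12118 to 14327, with Fabp4 and Ucp1 its largest terms. Of the 10 markers, 8 had a log2 fold change below 0, from -1.22 for Dio2 to -0.03 for Plin1. Ppara and Ebf2 were above 0, and Ebf2 was highest in mouse 11601, at 37.2. The part of other cells in the subunits' values was not tested, and in tissue RNA fewer brown adipocytes and less subunit mRNA per brown adipocyte cannot be told apart.

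**Figure D3:**
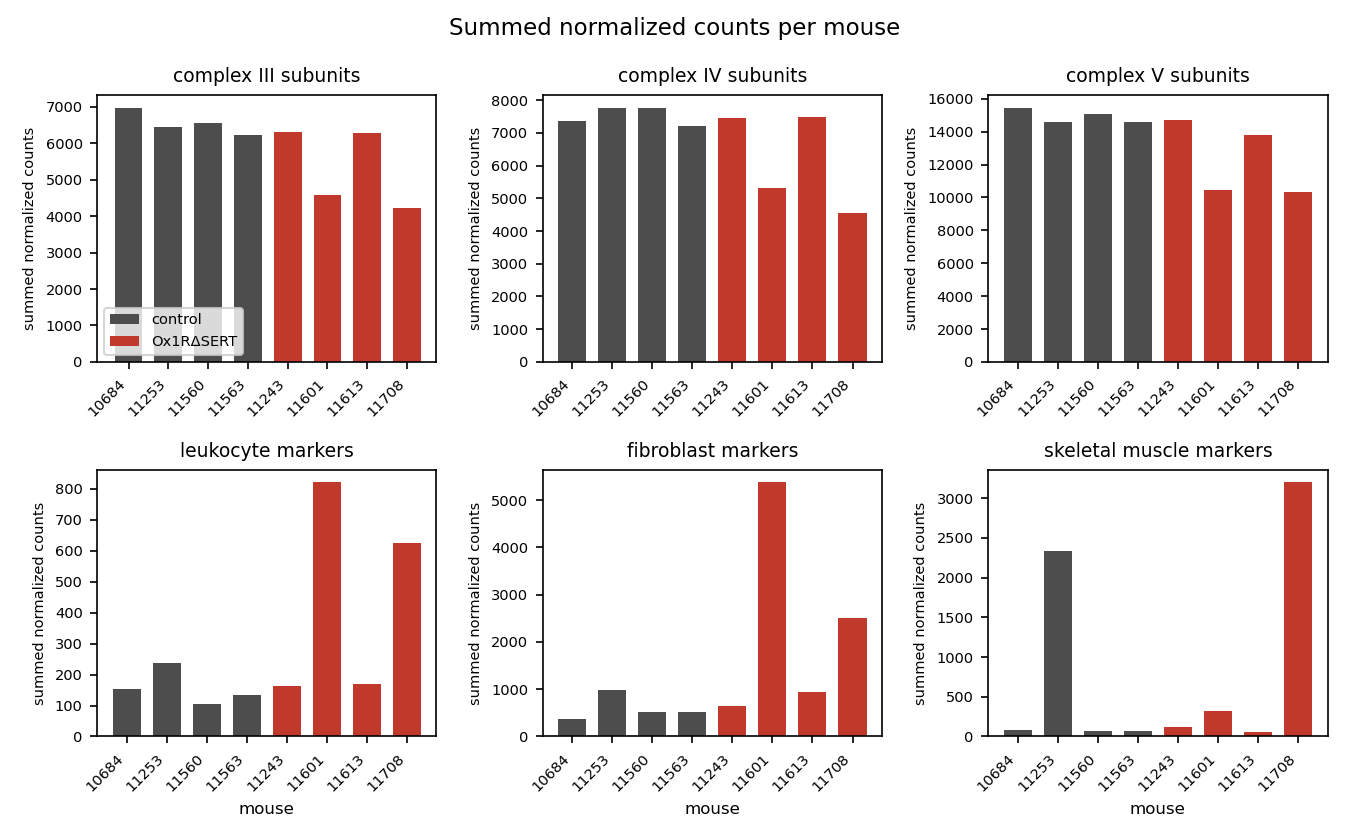
Summed normalized counts per mouse (bars from 0) of the subunits of complexes III, IV and V (upper panels) and of markers of leukocytes, fibroblasts and skeletal muscle (lower panels), controls in grey and Ox1RΔSERT mice in red. The complex sums are lowest, and the leukocyte and fibroblast sums highest, in mice 11601 and 11708.

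These genes varied little between the control mice. The coefficient of variation between the 4 controls had a median of 4.603% over the 38 subunits, with a range from 2.59% to 11.9%, against 10.04% for the other 973 genes with a mean of at least 100. Between the Ox1RΔSERT mice it was 21.9% for the subunits and 16.1% for those other genes.

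What was measured depended on the scale. In TPM, which divides by everything in the library, the summed level of complex III was 7954 ± 453 in controls and 7924 ± 904 in Ox1RΔSERT mice (SD, n = 4 each), that of complex IV 17991 ± 621 and 17955 ± 2133, and that of complex V 11874 ± 665 and 11986 ± 984. As log2 ratios these are -0.01, -0.00 and 0.01, within the spread between mice. On log2(TPM + 1), 18 of 43 subunits lay below 0 and their median was 0.01, while the median of all genes was 0.23, and with library size alone as the scale the medians were -0.09 and 0.22. Set against the all-gene median, the subunits were at -0.29 with TMM, at -0.22 on log2(TPM + 1) and at -0.30 with library size alone. The sums of normalized counts gave log2 ratios of -0.29, -0.28 and -0.28, and TPM rescaled without the mitochondrially encoded genes -0.18, -0.18 and -0.16.

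**Figure D4:**
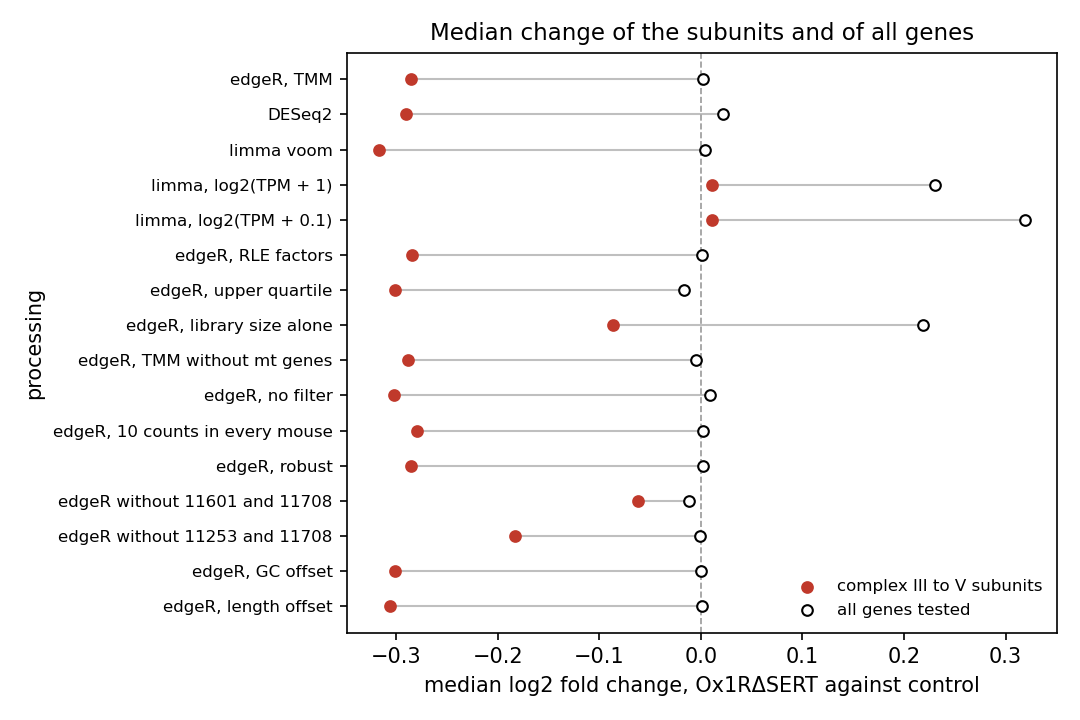
Median log2 fold change of the tested subunits (red) and of all genes tested (open) under each way of processing. The subunits lie left of all genes throughout, at -0.29 against 0.00 with edgeR and TMM and at 0.01 against 0.23 on log2(TPM + 1), and the gap is smallest, at -0.05, without mice 11601 and 11708.

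Within complex III, Uqcrc2 (ENSMUSG00000030884, chr7:120635176-120659524 on GRCm38), a core protein of the complex, measured 1516, 1243, 1341 and 1278 in controls and 1228, 915, 1107 and 894 in Ox1RΔSERT mice on the normalized scale. Every Ox1RΔSERT mouse lay below every control, although mouse 11243 was only just below. The means were 1344 ± 121 and 1036 ± 160.0 (SD, n = 4 each), and the log2 fold change was -0.38 ± 0.14 (SE) with an adjusted p of 0.316 by edgeR's quasi-likelihood test. Uqcrc2 shares 504 exon bases with Pdzd9 on the opposite strand, and the libraries were stranded. Uqcrh, the hinge protein that helps cytochrome c1 to dock cytochrome c and whose promoter window is shown above, had 549, 582, 568 and 547 in controls and 539, 391.6, 469.5 and 322 in Ox1RΔSERT mice. Here too the groups did not overlap, with mouse 11708 the lowest, and the log2 fold change was -0.38 ± 0.16. Uqcrb, a small subunit near the ubiquinone site, had 388, 395, 394 and 367 against 378, 282, 319 and 256, and mouse 11243 lay inside the range of controls.

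Uqcrq, the most abundant mRNA of the complex per length, had normalized values of 545, 544, 568 and 508 in controls and 538, 375, 514 and 311 in Ox1RΔSERT mice. Mice 11243 and 11613 lay among the controls, and the other 2 below all of them. The other genes, Cyc1 for cytochrome c1, Uqcrfs1 for the Rieske iron-sulfur protein, the core protein Uqcrc1 and the small subunits Uqcr10 and Uqcr11, had log2 fold changes between -0.32 and -0.18, with adjusted p from 0.365 to 0.613 by edgeR's quasi-likelihood test. In Uqcrc1, Uqcr10, Uqcr11 and Cyc1, mouse 11613 lay above the control mean.

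Cycs, cytochrome c itself (chr6:50562563-50566538), had the largest log2 fold change of the abundant genes, -0.42 ± 0.15 with an adjusted p of 0.316 by edgeR's quasi-likelihood test. Its normalized values were 403, 435, 441 and 424 in controls and 419, 311, 266 and 278 in Ox1RΔSERT mice. It was the gene whose lowest mouse was 11613, with 11243 inside the control range, so that for Cycs 3 of 4 Ox1RΔSERT mice lay below all controls. The log2 ratio to the control mean was -0.68 in mouse 11613, while Cox6a1 stood at 0.17 in the same mouse. Across the 38 subunits the ratios in mouse 11613 went with the GC content of the transcript, with a Spearman's rho of 0.62 over genes of 1 library, and 0.28 over all genes tested. With an offset for GC content the median over the subunits was -0.30 and 10 genes had an unadjusted p under 0.05, Cycs among them.

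In complex IV, Cox7c, a small subunit, had normalized values of 293, 312, 291 and 281 in controls and 289, 211, 233 and 177 in Ox1RΔSERT mice, a log2 fold change of -0.37 ± 0.15. Mouse 11243 lay among the controls and the other 3 below them. Cox8a, the ubiquitous form of subunit 8, had 660.4, 668, 699.6 and 665 against 635, 476, 645 and 366. The groups of Cox8a did not overlap, with mice 11243 and 11613 just under the lowest control and the other 2 far below, and the adjusted p by edgeR's quasi-likelihood test was 0.372.

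Cox8b, the tissue form of the same subunit and the most abundant mRNA of the 45, had 777, 887, 800.4 and 733 in controls and 816, 497, 785 and 452 in Ox1RΔSERT mice. Mice 11243 and 11613 lay in the middle of the controls, and the log2 fold change was -0.33 ± 0.21. The share of Cox8b in the summed TPM of Cox8a and Cox8b was 63.2% ± 1.91 in controls and 63.4% ± 1.99 in Ox1RΔSERT mice (SD, n = 4 each), a difference of 0.197 percentage points.

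Cox7a1, the heart and muscle form of subunit 7a that is also typical of brown fat, had 479, 466, 464 and 425 in controls and 446, 306, 391 and 250.04 in Ox1RΔSERT mice, a log2 fold change of -0.40 ± 0.17. Cox7a2, its counterpart of most tissues, had 319, 338, 328 and 299.6 against 311, 232, 299.6 and 195, a log2 fold change of -0.31 ± 0.15. In both genes mice 11601 and 11708 were the lowest. Cox7a1 made up 74.9% ± 0.544 of the pair in controls and 73.3% ± 1.90 in Ox1RΔSERT mice, with the lowest share, 70.9%, in mouse 11613. An exact two-sided permutation test of this share over the 70 assignments of mice gave p = 0.143, or 0.467 adjusted over 7 families.

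Cox4i1, the form of subunit 4 of most tissues, had 1134, 1188, 1170.3 and 1122 in controls and 1166, 802, 1232 and 734 in Ox1RΔSERT mice. Cox6a1 had 725, 762, 814 and 753 against 791, 550.3, 862 and 469, Cox6b1, a subunit on the side facing cytochrome c, 708, 729.9, 732 and 681 against 686, 521, 706 and 450.4, and Cox7b 535, 552, 571 and 509 against 549, 394, 536 and 340.0. In each of these 4 genes mice 11243 and 11613 were at or above the lowest control and mice 11601 and 11708 below all controls. Cox4i2, at 1.49, 2.25, 1.22 and 1.64 against 1.57, 1.203, 1.68 and 0.946, made up 0.133% of its pair in controls and 0.126% in Ox1RΔSERT mice.

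Cox6b2 had normalized values of 3.19, 3.36, 2.57 and 2.67 in controls and 1.48, 2.47, 2.42 and 0.638 in Ox1RΔSERT mice. These low values did not overlap, and the log2 fold change of -0.75 ± 0.38 was the most negative of the 43 genes, with an adjusted p of 0.366 by edgeR's quasi-likelihood test. Its share in the pair with Cox6b1 was 0.471% ± 0.0687 in controls and 0.322% ± 0.160 in Ox1RΔSERT mice (exact two-sided permutation test p = 0.114, adjusted 0.467), and the shares overlapped.

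Cox6a2 had normalized values of 0.131, 9.51, 0.0226 and 0.0210 in controls and 0.437, 1.28, 0.0225 and 12.3 in Ox1RΔSERT mice. It was high in 1 mouse of each group, 11253 and 11708, the mice with the highest sum of skeletal muscle markers, and mouse 11601 came next in both. Cox6a2 thus made up 1.007% and 2.04% of its pair in these mice and at most 0.187% in the others. Its part from muscle RNA was not tested, and its log2 fold change carried an SE of 1.85.

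The other complex IV genes, Cox5a, Cox5b, Cox6c and Cox7a2l, the last a supercomplex factor, had log2 fold changes between -0.28 and -0.20 and adjusted p from 0.419 to 0.476 by edgeR's quasi-likelihood test.

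**Figure D5:**
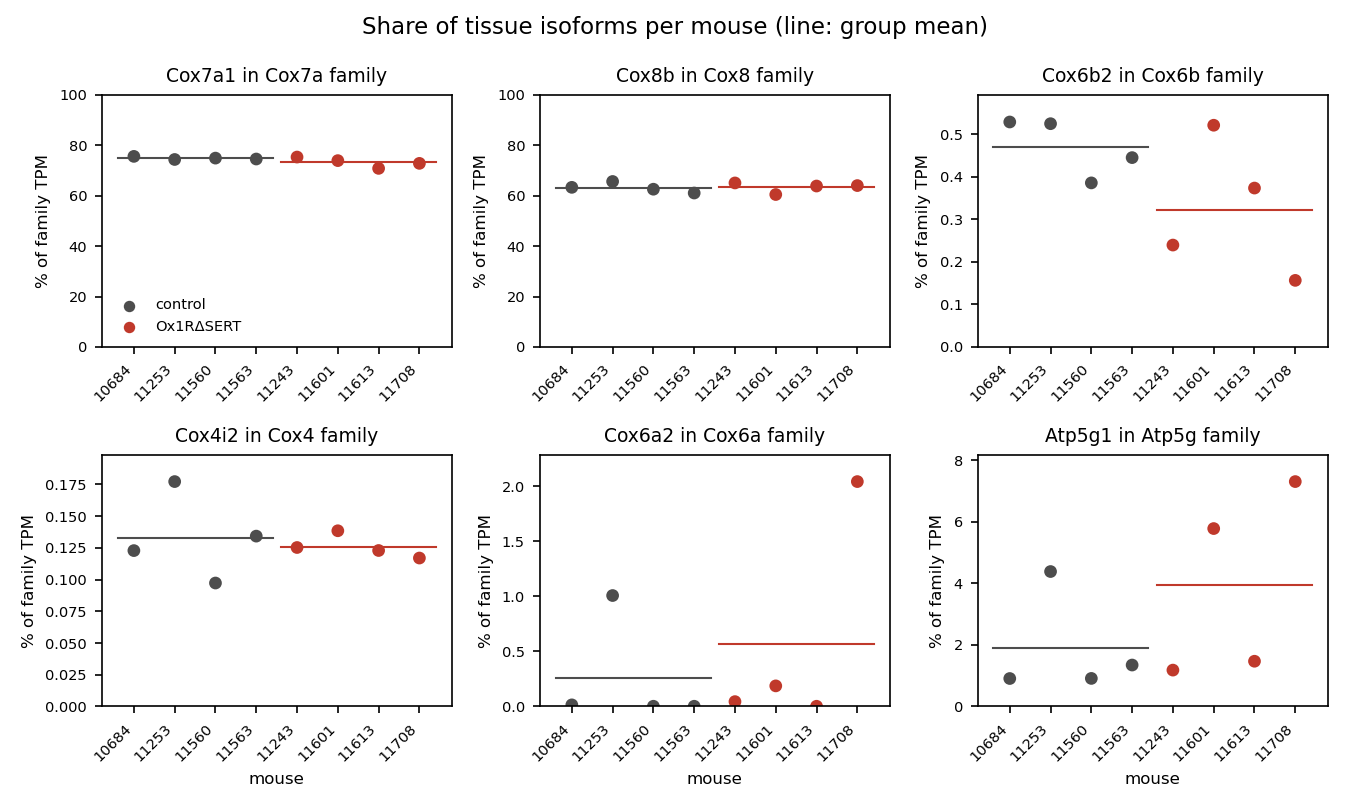
Share of 6 tissue isoforms in the summed TPM of their family, in percent, for each mouse (points, controls grey, Ox1RΔSERT red), with group means as lines. The group means are 74.9% and 73.3% for Cox7a1 and 63.2% and 63.4% for Cox8b, with overlapping mice, while Cox6a2 and Atp5g1 are high in mice 11253 and 11708, and Atp5g1 also in 11601.

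In complex V, Atp5mpl, a small proteolipid of the membrane part, had the lowest p of all 43 genes. Its normalized values were 137, 132, 129.8 and 129 in controls and 125, 103, 96.4 and 81.1 in Ox1RΔSERT mice, without overlap. The means were 132 ± 3.67 and 101 ± 18.1, a log2 fold change of -0.38 ± 0.13 with an adjusted p of 0.316 by edgeR's quasi-likelihood test. Atp5c1, the gamma subunit that forms the central stalk, had 508, 499.8, 488 and 471 against 460.1, 365, 415 and 344, again without overlap, and a log2 fold change of -0.31 ± 0.11. Atp5j2, subunit f of the membrane part, had 499.5, 527, 511 and 462 against 467, 345, 433 and 278, with mouse 11243 inside the control range.

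The catalytic subunits are far more abundant in read counts. Atp5b had 7577, 7144, 7513 and 7377 in controls and 7364, 5092, 6695 and 5297 in Ox1RΔSERT mice, and Atp5a1, the alpha subunit, 3417, 3014, 3167 and 3086 against 3130.3, 2214, 3124 and 2249.6. For Atp5a1, mice 11243 and 11613 lay within the controls. The log2 fold changes were -0.28 ± 0.17 and -0.24 ± 0.16, with adjusted p of 0.429 and 0.470 by edgeR's quasi-likelihood test.

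Atp5g1 went against the rest of the complex. Its normalized values were 3.14, 11.3, 3.21 and 4.54 in controls and 4.26, 13.7, 5.03 and 17.2 in Ox1RΔSERT mice, so that 3 mice, 1 control and 2 Ox1RΔSERT, stood above 10 and the other 5 at or below 5.03. The log2 fold change was 0.86 ± 0.57 with an adjusted p of 0.469 by edgeR's quasi-likelihood test, and without mice 11601 and 11708 it turned to -0.24. Atp5g2 had 126, 93.9, 111 and 113 against 112, 78.9, 116 and 84.6, and was lowest in the 3 mice where Atp5g1 was highest. Atp5g3 varied least of the abundant subunits between the groups, with 109.7, 119, 114 and 114 against 118, 99.1, 108 and 104 and a log2 fold change of -0.09 ± 0.08.

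As a share of the TPM of the 3 c subunit genes, Atp5g1 made up 0.909%, 4.38%, 0.912% and 1.35% in controls and 1.18%, 5.78%, 1.47% and 7.30% in Ox1RΔSERT mice. The difference of 2.05 percentage points had p = 0.200 by an exact two-sided permutation test, 0.467 adjusted, and the groups overlapped. The 3 mice with the high shares were those with the highest sums of skeletal muscle, leukocyte and fibroblast markers. The part of those cells was not tested. The group means of Atp5s differed by less than the spread between mice, with 7.09, 6.85, 5.53 and 5.17 against 7.31, 4.87, 6.42 and 6.23.

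The remaining complex V genes, Atp5d and Atp5e of the central stalk, Atp5f1, Atp5h, Atp5j and Atp5o of the peripheral stalk, and Atp5k and Atp5l of the membrane part, had log2 fold changes between -0.38 and -0.19 and adjusted p from 0.325 to 0.474 by edgeR's quasi-likelihood test. Atp5j overlaps Gabpa by 397 exon bases and Atp5f1 overlaps Wdr77 by 337, both on the opposite strand.

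The subunits share more than their names. Their genes are spread over 19 chromosomes, and their transcripts are short, with a median of 645 bases against 2107 for all genes tested, at a median GC content of 52.2% against 50.5%. In mouse 11708 the longer subunit transcripts were less below the control mean, with a Spearman's rho of 0.62 over the 38 genes. This was the largest of all mice, and the others ran from -0.39 in control mouse 11253 to 0.36 in control mouse 11563. The rho over all genes tested is not given here for length. With an offset for the effective transcript length of each library the median was -0.31, and 13 genes had an unadjusted p under 0.05.

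Partner genes lay on the same side. Of the 6 mitochondrially encoded partners, which supply the catalytic cores of complexes III and IV and subunits a and 8 of complex V, 6 had log2 fold changes below 0, with a median of -0.42, an adjusted p of 0.337 at the lowest by edgeR's quasi-likelihood test and none at an unadjusted p under 0.05. Their summed normalized values were 288648 to 372104 in controls and 197922 to 339587 in Ox1RΔSERT mice, with mouse 11243 among the controls and mouse 11613, at 227771, below them. The ratio of mitochondrial to nuclear mRNA in TPM was 5.22 ± 0.409 in controls and 4.87 ± 0.589 in Ox1RΔSERT mice for complex III, 10.6 ± 0.768 and 10.5 ± 1.58 for complex IV and 20.9 ± 1.68 and 18.7 ± 2.61 for complex V (SD, n = 4 each), all within the spread between mice.

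The assembly factors were like the subunits in direction. In mice 11601 and 11708 the summed normalized values of each assembly list, and of complex II, were the lowest of all mice. For complex IV assembly they were 1007 and 967, against 1205 to 1331 in the other mice. For complex III 6 of 6, for complex IV 24 of 24 tested and for complex V 4 of 5 had log2 fold changes below 0, with medians of -0.25, -0.22 and -0.23, and 2, 7 and 1 of them had an unadjusted p under 0.05. The exception was Atpif1, the inhibitor of the ATP synthase, with 5.20, 4.95, 4.15 and 4.48 in controls and 4.52, 11.1, 4.62 and 8.82 in Ox1RΔSERT mice, high in mice 11601 and 11708. Genes with symbols starting with Ndufa, Ndufb, Ndufc, Ndufs or Ndufv, mostly complex I subunits, also include assembly factors such as Ndufaf1 and Ndufaf4. Of these 46 genes, 46 lay below 0 with a median of -0.27. At an unadjusted p under 0.05 there were 14 of them, Ndufaf1 and Ndufaf4 included. These 14 genes, and the assembly factors under that threshold, were all lower in Ox1RΔSERT mice, as were 4.96% of all genes. Such counts without mice 11601 and 11708 are not given here. Complex II had 4 of 4 below 0 with a median of -0.22. None of these genes passed an adjusted p of 0.05 by edgeR's quasi-likelihood test, nor by DESeq2.

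Regulators of respiratory chain genes did not share one direction. Of 13, 7 had log2 fold changes below 0 and 6 above, with a median of -0.06, and 3 had an unadjusted p under 0.05, against 15.2% of all genes in either direction. Pprc1, a coactivator related to PGC-1, was among them, with 16.7, 12.3, 14.9 and 15.3 in controls and 15.5, 25.8, 21.4 and 22.8 in Ox1RΔSERT mice, a log2 fold change of 0.53 ± 0.16. The others were Gabpa and Tfam. Gabpa, an ETS factor, stood at -0.32 ± 0.11 and Tfam, which maintains and transcribes mitochondrial DNA, at -0.25 ± 0.09, with all Ox1RΔSERT mice below all controls for Tfam. Nrf1, the transcription factor whose motif was searched above, had 8.08, 8.78, 9.15 and 8.28 in controls and 9.63, 10.4, 9.90 and 9.71 in Ox1RΔSERT mice. All Ox1RΔSERT mice lay above all controls for Nrf1, as for 2.69% of all genes, and its log2 fold change was 0.21 ± 0.10 with an adjusted p of 0.344 by edgeR's quasi-likelihood test. Ppargc1a, encoding PGC-1alpha, had 34.3, 112, 103 and 109 in controls and 56.5, 45.8, 93.0 and 54.5 in Ox1RΔSERT mice, and its lowest value was that of control mouse 10684.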

How the data were processed

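BAT mRNA of 8 mice, 4 per group by the genotype label, was sequenced after poly-A selection with a stranded kit. What the authors deposited are raw estimated counts of genes, made with Salmon 0.14.1 on GRCm38, and TPM values, which the authors normalized for transcript length and library. The submitters' processing notes also list STAR. The annotation release is not given in the sources used here, and symbols and positions come from GENCODE M21.

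Estimated counts were rounded. All 8 mice entered edgeR 4.0.16 (filterByExpr, TMM, glmQLFit and glmQLFTest, no covariates) (R 4.3.3). Tests were two-sided and adjusted by Benjamini-Hochberg over 14489 genes. Normalized values are CPM after TMM. Isoform shares used TPM and an exact permutation test, which cannot give a p under 0.0286. DESeq2 1.42.0 (the authors used 1.26.0), limma 3.58.1, other scalings, filters and left-out mice were alternatives. The test was checked on simulated counts, with genes drawn independently and changes larger than those of the subunits. That check therefore does not cover shifts of the subunits' size or genes that move together. A count of 3 corresponds to normalized values of 0.0592 to 0.0951, for counting error only.

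The genes, gene lists, motifs and tests were chosen with earlier results of these data known. Values in every mouse are given for the member with the highest TPM in each complex, isoform families, the 3 lowest p in each direction per complex, Cycs, Uqcrc2 and Atp5a1, and members without overlap. The omission of mice 11601 and 11708 or 11253 and 11708, and the offsets for GC content (known for 14427 genes) and transcript length, were added after seeing the data. Pseudogenes of the subunits took 1 to 10 counts per mouse.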

Additional observations from a re-analysis of the deposited data

Results flagged for a closer look

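In 106 groups of 4 mice (the values and shares of each subunit in each group), 8 had a mouse set apart from the other 3 by Dixon's criterion, and chance alone flags about 1 group in 20. Values and shares of the same genes both entered, so the groups are not independent. Cox6a2 was set apart at 9.51 in control mouse 11253 (others 0.0210 to 0.131) and at 12.3 in Ox1RΔSERT mouse 11708 (others 0.0225 to 1.28), and so was its share in the pair with Cox6a1, at 1.007% and 2.04% in the same mice. Atp5g1 made up 4.38% of the c subunit mRNAs in control mouse 11253, against 0.909% to 1.35% in the other controls. Control mouse 11563 was low in Atp5e, at a normalized value of 242.6 against 263 to 267, and in Atp5h, at 385 against 405 to 408. Mouse 11563 lay below the control mean in 37 of the 38 abundant subunits, with a median of 95.6% of it. The same mouse was the only one with Cox7b2 above 0, at 0.00789% of its pair, from a value under the level of 3 counts.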

How the results depend on the processing

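No subunit was called in edgeR or limma under any alternative, nor at an adjusted p of 0.1 in edgeR, and DESeq2 called 10 only without Ox1RΔSERT mouse 11243. For fits with mice left out, the shares of all genes are not given here. The 40 genes below 0 became 18 on log2(TPM + 1) and on log2(TPM + 0.1), where the median turned to 0.011, and the 10 genes at an unadjusted p under 0.05 became 0 on both TPM scales, with library size alone, without mice 11601 and 11708, and without mice 11253 and 11708. With 1 mouse left out, that count ran from 1 to 23 in edgeR (3, 3, 2 and 4 without control mice 10684, 11253, 11560 and 11563, and 23, 3, 20 and 1 without 11243, 11601, 11613 and 11708) and from 4 to 29 in DESeq2 (6, 4, 4 and 9, and 26, 5, 29 and 4). The log2 ratios of the complex sums moved from near 0 in TPM to -0.29, -0.28 and -0.28 as normalized counts and -0.18, -0.18 and -0.16 in TPM without mitochondrially encoded genes, and with 1 mouse left out they ran from -0.0758 (without 11613) to 0.0553 (without 11708) for complex III, and likewise from -0.0742 to 0.0648 for complex IV and -0.0376 to 0.0536 for complex V. Differences in isoform shares ran from -0.0189 to 0.00779 percentage points for Cox4i2, -0.179 to 0.562 for Cox6a2 and -0.499 to 1.16 for Cox8b when 1 mouse was left out, with the opposite sign to all 8 mice for Cox4i2 without 11253, Cox6a2 without 11708 and Cox8b without 11563, 11243 or 11708. The causes of these changes were not tested. Of 43 subunits, 16 had the same sign in every alternative. No paired analysis was possible because the labels number the animals singly, and the replicate numbers used here follow accession order and tie no mice together.

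Depth was not the limit for the abundant subunits, whose counts are high in each mouse. It limits Cox7b2 and Cox8c, at or near 0, and Cox6a2, under the level of 3 counts in 3 mice. With 4 mice per group the exact test of a share cannot give a p under 0.0286.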
